A study of Mus musculus with 12 samples.

Results

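Branched-chain amino acid (BCAA) breakdown was followed through 10 genes in inguinal white adipose tissue (iWAT) of cold-exposed mice: Bcat1, Bcat2, Bckdha, Bckdhb, Dbt, Bckdk, Ppm1k, Ivd, Mccc1 and Mccc2. They were taken by symbol from a table of 23420 genes, and all 10 passed the filter on low counts that left 15306 genes tested. The tissue came from male C57BL/6 mice, 10 weeks old, 3 mice in each of 4 groups. The labels give each library as a separate sample, and each is taken here as 1 mouse. All mice carried HIF2a loxP/loxP, the floxed alleles of a hypoxia-inducible transcription factor. Mice with these alleles and no Cre are called WT, and mice that also carried Adipoq-Cre, which acts in adipocytes through the adiponectin promoter, are called AKO. One WT and one AKO group spent 1 week at thermoneutrality (TN, 30 °C), and the other two spent 3 days in cold (4 to 6 °C), so temperature and time in the condition cannot be told apart.

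Leucine, isoleucine and valine are used as fuel in mitochondria. A transaminase first removes the amino group, and the branched-chain keto acid dehydrogenase complex (BCKDH) then commits the carbon skeleton to oxidation. BCKDH is switched off when a kinase phosphorylates it and on when a phosphatase removes the phosphate. Adipose tissue, and thermogenic fat in particular, is known to take up and oxidise BCAAs.

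The 12 libraries held between 22368316 and 35204631 gene counts. The targeted gene was measured first. Epas1, which encodes HIF2a, ranged from 277.8 to 429.7 CPM (counts scaled to library size) in TN WT and from 288.7 to 394.1 CPM in TN AKO, and from 561.9 to 742.7 CPM in cold WT and 743 to 985.4 CPM in cold AKO. It did not differ past the test between libraries labelled AKO and WT (log2 difference -0.05 at TN and 0.40 in cold; adjusted p = 0.9995 and 0.9999, edgeR's quasi-likelihood F-test, adjusted by Benjamini-Hochberg over all genes). These counts cover the whole gene and tissue and do not check the deleted part, so the genotypes below are as labelled. The 12 skeletal muscle genes listed summed to 1979 CPM in TN AKO replicate 2 and 1710 CPM in cold AKO replicate 1, against 43.3 to 131.7 CPM in the other 10 libraries, and the 6 epithelial genes summed to 199.9 CPM in TN WT replicate 3 against at most 10.3 elsewhere. The 6 beige adipocyte markers (Ucp1, Cidea, Dio2, Elovl3, Cox8b and Cox7a1) summed to 12.1 to 60.8 CPM at TN and 3273 to 8456 CPM in cold.

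The 10 genes were expressed at very different levels. Per kilobase of exon, which allows genes to be compared, the TN WT mean was highest for Bckdha (78.2 ± 19.99 CPM per kb, SD, n = 3), followed by Bcat2 (60.8 ± 14.0), Ivd (54.0 ± 13.7), Mccc1 (53.3 ± 15.9), Mccc2 (39.3 ± 12.4), Bckdhb (26.3 ± 6.85), Bckdk (19.3 ± 2.89) and Dbt (18.9 ± 4.80 CPM per kb). Neighbours in this part of the order had overlapping ranges. Ppm1k at 5.27 ± 0.157 CPM per kb and Bcat1 at 0.700 ± 0.133 CPM per kb lay below all of the others, and their ranges overlapped with no other gene's. Bckdha had the highest mean, Bcat1 the lowest and Ppm1k the next lowest in each of the 4 groups.

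**Figure D1:**
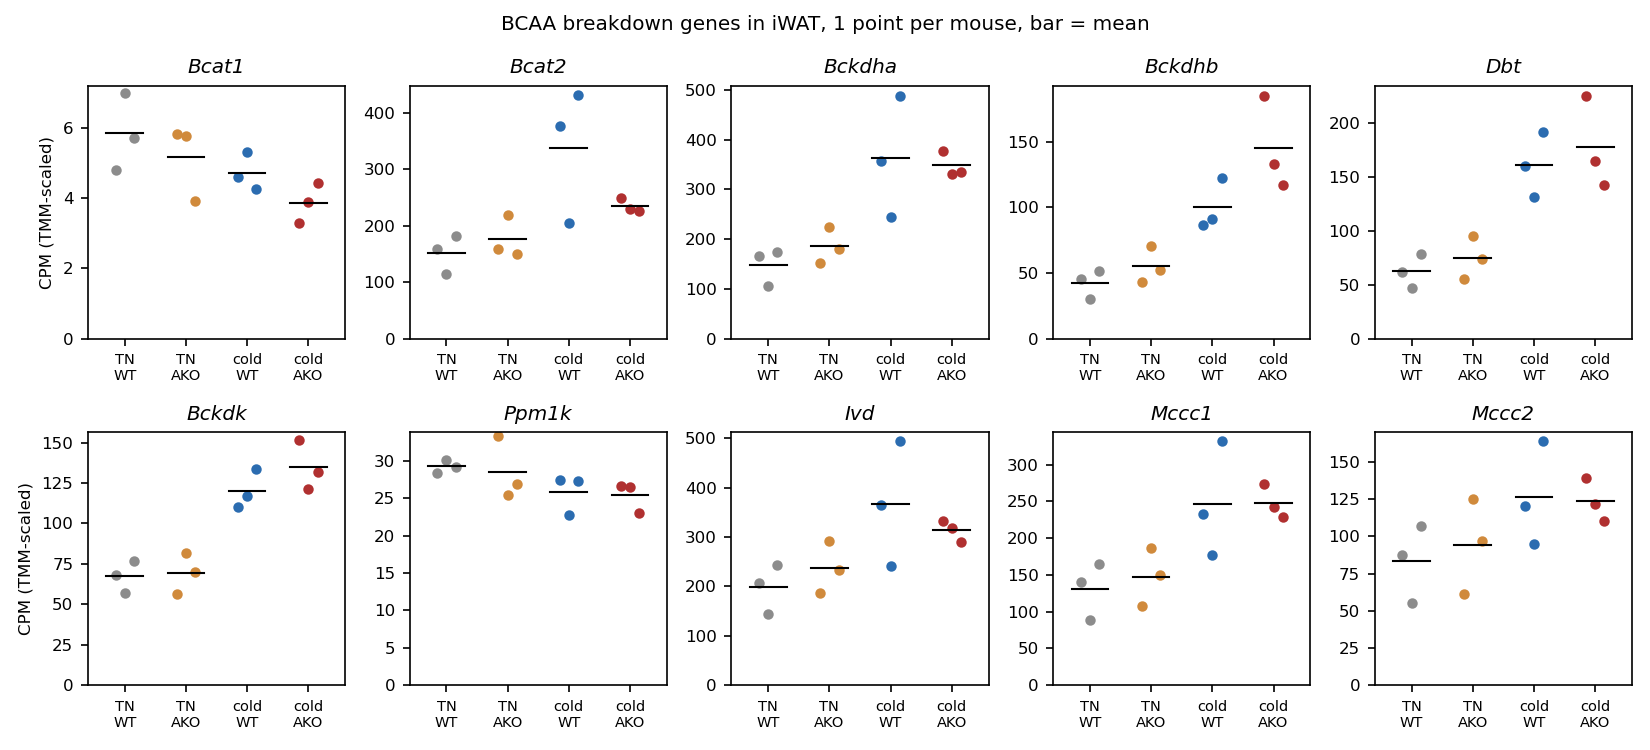
TMM-scaled CPM (y axes, starting at 0, a different scale for each gene) of the 10 BCAA breakdown genes in the 4 groups (x axes), with 1 point per mouse and a bar at the mean. Bckdha, Bckdhb, Dbt and Bckdk lie higher in all cold libraries than in all TN libraries. The share of all genes that do so across both genotypes was not computed. Bcat2 runs from 203.8 to 431.5 CPM in cold WT, and Bcat1 and Ppm1k stay near their TN levels.

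Cold exposure was compared with TN first in WT mice. In these, 7 of the 10 genes rose: Bcat2, the 3 BCKDH subunit genes Bckdha, Bckdhb and Dbt, the kinase Bckdk, and Ivd and Mccc1 of the leucine branch. No member fell. Over all genes tested, 15.6% were called higher and 5.68% lower in this comparison (edgeR's quasi-likelihood test, adjusted p under 0.05). The median log2 fold change of the 10 genes was 0.90, beside -0.03 for all genes tested. For 6 of the 10, every cold WT mouse lay above every TN WT mouse, and for 1, Ppm1k, every cold mouse lay below, where 22.8% of all genes were separated upward and 19.2% downward. The count of called genes dropped from 7 to 4 without cold WT replicate 3, and also to 4 without TN WT replicate 2; Bcat2, Ivd and Mccc1 were the ones lost each time.

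In AKO mice, 4 of the 10 genes rose in cold and none fell, against 15.6% of all genes called higher and 11.5% lower. These were Bckdha, Bckdhb, Dbt and Bckdk, all of which also rose in WT. The median log2 fold change of the 10 was 0.58, beside -0.05 for all genes. For 6 of the 10 the cold mice lay entirely above the TN mice (24.9% of all genes did) and for 0 entirely below (25.6% of all genes did). Without the 2 libraries that held skeletal muscle transcripts, 3 of the 10 were called, Bckdha being lost, and leaving out cold AKO replicate 1 alone, cold AKO replicate 2, TN AKO replicate 1 or TN AKO replicate 3 gave the same 3.

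**Figure D2:**
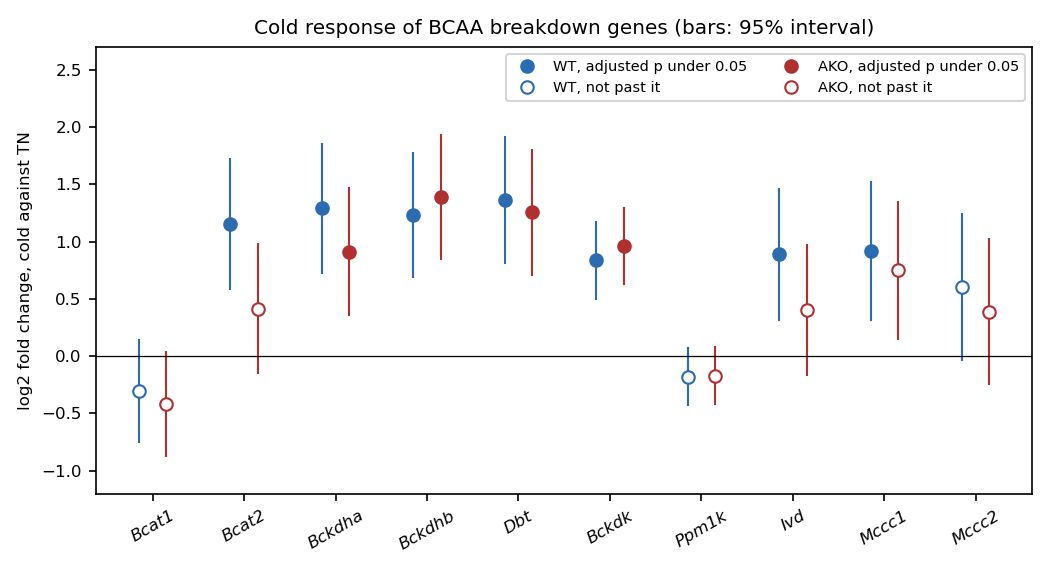
Log2 fold change of cold against TN (y axis) for each of the 10 genes (x axis) in WT (blue) and AKO (red); bars are 95% intervals and filled points had an adjusted p under 0.05. The intervals of the 2 genotypes overlap for every gene, and the fitted fold change is over 0 in both genotypes for 8 of the 10.

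The transaminases catalyse the first, reversible step. Bcat2 encodes the mitochondrial enzyme and Bcat1 the cytosolic one. Bcat2 stood at 158.4, 113.5 and 182.1 CPM in TN WT, 376.1, 203.8 and 431.5 CPM in cold WT, 159.3, 219.0 and 150.4 CPM in TN AKO, and 248.7, 229.4 and 226.5 CPM in cold AKO. Cold and TN mice did not overlap in either genotype, but cold WT replicate 2 lay below the 3 cold AKO mice while the other 2 cold WT mice lay far above them. The log2 fold change was 1.16 ± 0.26 (SE) in WT (2.23-fold, adjusted p = 0.0125) and 0.41 ± 0.26 in AKO (1.33-fold, adjusted p = 0.243).

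Bcat1 was scarce, with 68 to 205 counts per library. It measured 4.81, 7.02 and 5.73 CPM in TN WT, 4.61, 5.34 and 4.26 CPM in cold WT, 5.84, 5.78 and 3.92 CPM in TN AKO and 3.29, 3.90 and 4.45 CPM in cold AKO. The groups overlapped, and the log2 fold changes of -0.30 in WT (adjusted p = 0.290) and -0.41 in AKO (adjusted p = 0.153) did not pass the test. The exons of Bcat1 share 250 bases with an antisense gene, Gm26666, which has no row in the count table, so without a stated strand setting its reads cannot be told apart from those of Bcat1.

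Because a ratio of 2 genes within a library does not depend on its total, 4 such ratios were tested. The log2 ratio of Bcat1 to Bcat2 counts averaged -4.88 ± 0.46 (SD, n = 6) at TN and -6.00 ± 0.51 (SD, n = 6) in cold. The difference of -1.12 had p = 0.005 in an exact permutation test within genotype, two-sided, the smallest p its 400 arrangements allow (adjusted p = 0.00667 over 4 ratios). Bcat1 was called in neither genotype and Bcat2 only in WT, so this ratio is not separate from the fold changes given above. How many other pairs of genes reach this p was not computed. In both genotypes each cold mouse lay below each TN mouse of the same genotype, which with 3 against 3 mice cannot give an exact p under 0.1. In the table of annotated genes the exons of Bcat2 share 508 bases with an antisense gene, 0610005C13Rik, which held 8 to 28 counts per library, against at least 3314 for Bcat2; whether the counting used strand is not given in the sources used here.

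BCKDH carries out the committed, irreversible step. Bckdha and Bckdhb encode the 2 subunits of its E1 component, which decarboxylates the keto acid, and Dbt encodes the E2 core, which passes the acyl group to coenzyme A. Bckdha measured 166.7, 104.9 and 174.1 CPM in TN WT, 357.5, 244.0 and 488.8 CPM in cold WT, 152.1, 223.9 and 179.9 CPM in TN AKO and 377.9, 331.9 and 335.5 CPM in cold AKO. The lowest cold library lay above the highest TN library across both genotypes. Within a genotype, 22.8% of all genes were separated upward in WT and 24.9% in AKO. The share of all genes separated across both genotypes was not computed, which also applies to the genes described below. The log2 fold change was 1.29 ± 0.26 in WT (adjusted p = 0.00692) and 0.91 ± 0.26 in AKO (adjusted p = 0.0256).

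Bckdhb measured 45.4, 30.2 and 51.7 CPM in TN WT, 86.5, 91.2 and 122.2 CPM in cold WT, 43.2, 70.3 and 52.3 CPM in TN AKO and 184.9, 133.3 and 117.3 CPM in cold AKO. All cold mice were above all TN mice, and 2 of 3 cold AKO mice were above every cold WT mouse. The log2 fold change was 1.24 ± 0.25 in WT (adjusted p = 0.00730) and 1.39 ± 0.25 in AKO (adjusted p = 0.00329).

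Dbt measured 61.9, 46.9 and 78.5 CPM in TN WT, 159.6, 131.0 and 191.6 CPM in cold WT, 54.8, 94.5 and 73.3 CPM in TN AKO and 225.0, 164.8 and 142.6 CPM in cold AKO. It had the largest fold change of the 10 genes in WT, 2.57-fold (log2 1.36 ± 0.25, adjusted p = 0.00477), and a 2.39-fold change in AKO (log2 1.26 ± 0.25, adjusted p = 0.00596). In AKO the highest library at each temperature was the one with skeletal muscle transcripts, for Bckdhb and Dbt as for Bcat2, Bckdha, Bckdk, Ivd, Mccc1 and Mccc2. These 2 libraries, TN AKO replicate 2 and cold AKO replicate 1, also had the highest sums of white adipocyte markers in their groups, 10940 and 20330 CPM. Without those 2 libraries both genes still rose in AKO.

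The 2 E1 subunits are built into the enzyme in equal number. The log2 ratio of Bckdha to Bckdhb counts was 1.78 ± 0.07 (SD, n = 6) at TN and 1.56 ± 0.40 (SD, n = 6) in cold, and the difference of -0.23 had p = 0.155 in the exact permutation test within genotype. It was 0.01 in WT and -0.47 in AKO. In AKO each cold mouse lay below each TN mouse (exact permutation p = 0.1, the smallest possible with 3 against 3). The TN mice were tightly grouped, between 3.19 and 3.67 Bckdha counts per Bckdhb count. The cold mice ran from 2.04 to 4.13, and the lowest value was cold AKO replicate 1, one of the libraries with skeletal muscle transcripts. Leaving out cold WT replicate 1 brought the difference over both genotypes to -0.33 (p = 0.04, exact permutation test).

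Bckdk encodes the kinase that inhibits BCKDH, and Ppm1k the mitochondrial phosphatase that restores its activity. Bckdk measured 68.3, 56.8 and 76.9 CPM in TN WT, 110.4, 116.7 and 133.4 CPM in cold WT, 56.4, 81.6 and 69.7 CPM in TN AKO and 151.5, 121.5 and 131.9 CPM in cold AKO. The temperatures did not overlap. The log2 fold change was 0.84 ± 0.16 in WT (adjusted p = 0.00476) and 0.96 ± 0.16 in AKO (adjusted p = 0.00181).

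Ppm1k varied least among the mice. It measured 28.4, 30.2 and 29.2 CPM in TN WT, 27.4, 22.7 and 27.4 CPM in cold WT, 33.3, 25.5 and 26.9 CPM in TN AKO and 26.7, 26.5 and 23.0 CPM in cold AKO. The WT groups were just separated, with cold below TN, and the AKO groups overlapped. The log2 fold changes were -0.18 in WT (95% interval -0.44 to 0.08, adjusted p = 0.265) and -0.17 in AKO (-0.43 to 0.09, adjusted p = 0.288), so that a rise as large as that of Bckdk lay outside both intervals.

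Bckdk therefore rose relative to Ppm1k within libraries. As Ppm1k was not called in either genotype, this ratio largely restates the rise of Bckdk. There were 1.69 to 3.21 Bckdk counts per Ppm1k count in the 6 TN mice and 4.02 to 5.72 in the 6 cold mice, with no overlap. On the log2 scale the means were 1.23 ± 0.34 (SD, n = 6) and 2.31 ± 0.19 (SD, n = 6). The difference of 1.08 had p = 0.005 in the exact permutation test within genotype, the smallest p possible (adjusted p = 0.00667). It was 1.03 in WT and 1.14 in AKO.

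The regions around the transcription starts of E1, kinase and phosphatase genes are shown because these genes split in their cold response and because a HIF subunit is the targeted factor. Each holds 250 bases before and 50 after a RefSeq start (build GRCm38.p6), and capitals mark the HIF core letters ACGTG or GCGTG on either strand. Bckdha lies at chr7:25658712-25659011 on the minus strand, Bckdhb at chr9:83924887-83925186 on the plus strand, Bckdk at chr7:127903823-127904122 on the plus strand and Ppm1k at chr6:57535438-57535737 on the minus strand.
Bckdha: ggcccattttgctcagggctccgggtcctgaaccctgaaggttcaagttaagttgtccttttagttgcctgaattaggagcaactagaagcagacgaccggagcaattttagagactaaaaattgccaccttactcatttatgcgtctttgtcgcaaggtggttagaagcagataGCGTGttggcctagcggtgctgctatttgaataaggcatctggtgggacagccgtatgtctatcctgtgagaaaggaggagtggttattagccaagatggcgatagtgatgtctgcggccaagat
Bckdhb: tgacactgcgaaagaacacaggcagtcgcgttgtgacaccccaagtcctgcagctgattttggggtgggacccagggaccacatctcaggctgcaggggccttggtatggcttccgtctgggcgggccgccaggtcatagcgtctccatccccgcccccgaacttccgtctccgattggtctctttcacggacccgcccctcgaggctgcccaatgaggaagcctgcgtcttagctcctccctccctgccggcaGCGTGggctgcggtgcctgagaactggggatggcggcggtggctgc
Bckdk: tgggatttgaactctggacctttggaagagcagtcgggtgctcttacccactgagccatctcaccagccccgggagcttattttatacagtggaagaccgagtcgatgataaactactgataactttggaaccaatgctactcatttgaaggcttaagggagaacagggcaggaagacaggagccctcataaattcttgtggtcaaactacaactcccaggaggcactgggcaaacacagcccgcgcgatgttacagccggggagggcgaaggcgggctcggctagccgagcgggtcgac
Ppm1k: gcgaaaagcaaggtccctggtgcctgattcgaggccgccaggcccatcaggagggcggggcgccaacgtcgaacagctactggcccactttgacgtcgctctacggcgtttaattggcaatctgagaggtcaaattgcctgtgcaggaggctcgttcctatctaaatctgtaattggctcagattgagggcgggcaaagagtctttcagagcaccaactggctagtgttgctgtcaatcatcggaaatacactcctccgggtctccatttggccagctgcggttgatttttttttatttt

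The windows of Bckdha and Bckdhb each held 1 HIF core, at offsets -75 and 5 from the start, and those of Bckdk and Ppm1k held none. Of the 10 genes 9 had an entry in the table, with 12 windows because some had 2 starts, and 7 of these 12 held a HIF core, as did 43.8% of 32851 windows of the same length over all genes. The estrogen-related receptor element TCAAGGTCA was in 0 of 12 (0.423% of all windows), the cAMP response element TGACGTCA in 0 of 12 (1.79%), and the nuclear receptor half-site AGGTCA, which is part of the first of these, in 3 of 12 (16.3%). Those 3 were windows of Ppm1k, Bcat1 and Bckdhb.

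Leucine's own branch continues with Ivd, which encodes isovaleryl-CoA dehydrogenase, and with Mccc1 and Mccc2, which encode the biotin-carrying and the partner subunit of methylcrotonoyl-CoA carboxylase. Ivd measured 207.6, 143.3 and 242.5 CPM in TN WT, 364.6, 241.3 and 494.2 CPM in cold WT, 186.7, 291.5 and 233.0 CPM in TN AKO and 332.3, 318.0 and 290.7 CPM in cold AKO. Cold and TN mice overlapped in both genotypes, by 1 cold mouse in WT and by 1 mouse at each temperature in AKO. The log2 fold change was 0.89 ± 0.26 in WT (adjusted p = 0.0360) and 0.40 ± 0.26 in AKO (adjusted p = 0.257).

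Mccc1 measured 140.1, 88.1 and 164.2 CPM in TN WT, 232.6, 176.8 and 331.7 CPM in cold WT, 107.8, 186.3 and 149.2 CPM in TN AKO and 273.6, 242.8 and 228.3 CPM in cold AKO. The temperatures did not overlap within either genotype. The log2 fold change was 0.92 ± 0.28 in WT (adjusted p = 0.0387) and 0.75 ± 0.28 in AKO, which missed the limit (adjusted p = 0.0642).

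Mccc2 measured 87.7, 55.2 and 107.3 CPM in TN WT, 120.4, 95.2 and 164.5 CPM in cold WT, 61.6, 125.2 and 96.6 CPM in TN AKO and 139.2, 121.9 and 110.1 CPM in cold AKO. The groups overlapped in both genotypes, and neither log2 fold change passed the test (0.60 in WT, adjusted p = 0.1501; 0.39 in AKO, adjusted p = 0.327). The log2 ratio of Mccc1 to Mccc2 counts nevertheless separated all cold from all TN mice, at 0.98 ± 0.05 (SD, n = 6) in cold and 0.66 ± 0.08 (SD, n = 6) at TN. The difference of 0.32 had p = 0.005 in the exact permutation test within genotype, the smallest p possible (adjusted p = 0.00667). The exons of Mccc1 share 198 bases with an antisense gene, Mccc1os, which has no row in the count table, so its reads cannot be told apart from those of Mccc1 in this ratio.

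**Figure D3:**
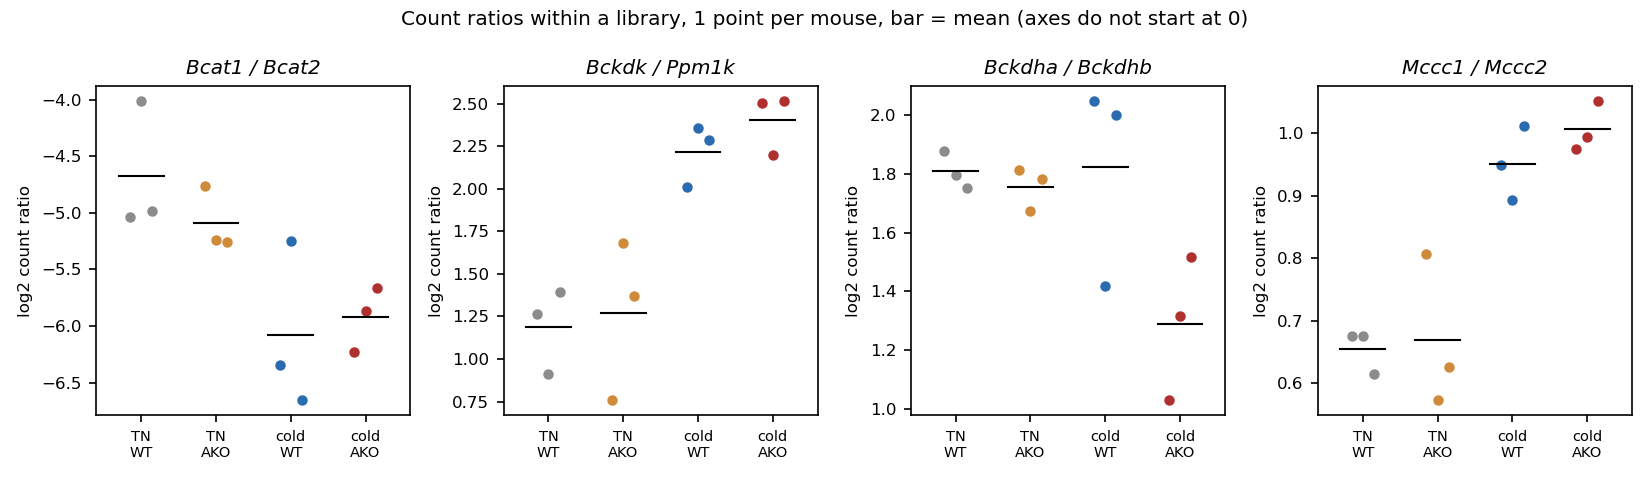
Log2 ratios of 2 genes' counts within a library (y axes, which do not start at 0) for 4 pairs of BCAA breakdown genes in the 4 groups (x axes), with 1 point per mouse and a bar at the mean. Bckdk per Ppm1k and Mccc1 per Mccc2 are higher in all 6 cold mice than in all 6 TN mice, and Bckdha per Bckdhb spreads from 1.03 to 2.05 in cold.

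The genes were then set against the amount of adipocyte transcript in each library. The 6 white adipocyte markers (Adipoq, Lep, Plin1, Fabp4, Lipe and Retn) summed to 4120 to 10940 CPM in the 6 TN libraries and 13390 to 24250 CPM in the 6 cold ones, and 8 of the 10 genes followed that sum from mouse to mouse. Of the single markers, 2 of 6 were called higher in cold in WT and 1 of 6 in AKO, beside 15.6% of all genes tested in each genotype. TN WT replicate 2, with the lowest sum, was the lowest TN WT library for these 8 genes and the highest for Bcat1 and Ppm1k, and cold WT replicate 3, with the highest sum, was the highest cold WT library for the same 8. Within groups, Pearson's r between log2 CPM and the log2 marker sum was 0.979 for Mccc2, 0.978 for Mccc1, 0.944 for Ivd and 0.825 to 0.923 for Bcat2, Bckdha, Bckdhb, Dbt and Bckdk. It was -0.134 for Ppm1k and -0.533 for Bcat1. Without Fabp4 in the sum, r was 0.809 to 0.985 for the same 8 genes. The tie was not particular to white adipocyte markers. With the mitochondrial sum described below, r was 0.982 for Bckdk, 0.95 for Bckdhb, 0.587 for Bcat2 and -0.527 for Bcat1. Over the 8 genes, r with the cell cycle sum ran from -0.889 for Mccc2 to -0.686 for Bcat2. With the skeletal muscle sum it ran from 0.341 for Bcat2 to 0.671 for Dbt, and with the beige sum from 0.341 for Bcat2 to 0.774 for Bckdk. With the macrophage sum it ran from -0.695 for Mccc1 to -0.532 for Bcat2. These are descriptions over 12 libraries that share depth and scaling between both measures. In whole tissue, fewer cells of a type and less RNA per cell cannot be told apart.

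Relative to the white adipocyte sum, 5 of the 10 genes were lower in all cold than in all TN mice in WT, and 6 in AKO; of all genes tested, 78.4% were in WT and 83.3% in AKO. The fall in WT was -1.70 on the log2 scale for Bcat1 and -1.59 for Ppm1k, and the values of Bckdha (-0.13), Bckdhb (-0.15) and Dbt (-0.02) overlapped between temperatures. In AKO these 3 stood at -0.24, 0.23 and 0.10, again with overlap.

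These values turn on 1 marker. Fabp4, a fatty acid carrier of adipocytes, made up 47.55 to 53.65% of the sum at TN and 66.4 to 69.5% in cold, and it rose by 1.73 on the log2 scale in WT (adjusted p = 0.0125) and 1.58 in AKO (adjusted p = 0.0155). Adipoq, which encodes adiponectin, stood at 0.43 in WT (adjusted p = 0.352) and -0.01 in AKO (adjusted p = 0.985). In a comparison chosen after seeing the data, relative to the 5 markers without Fabp4, Bckdha (0.45), Bckdhb (0.44) and Dbt (0.56) lay higher in all cold than in all TN mice in WT, and Bckdhb (0.89), Dbt (0.76) and Mccc1 (0.28) did in AKO. Of all genes tested, 3.52% did so in WT and 6.54% in AKO. Ppm1k (-1) and Mccc2 (-0.19) lay lower in WT, and Bcat1 (-0.91) and Ppm1k (-0.66) in AKO, where 32.3% of all genes tested did in WT and 32.7% in AKO. The median over the 10 genes went from -0.51 in WT and -0.56 in AKO with Fabp4 to 0.08 and 0.11 without it, and to 0.49 and 0.59 relative to Adipoq alone. Whether most of these genes rose or fell relative to white adipocyte transcript therefore depended on the marker.

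The 8 macrophage markers summed to 1556 to 2775 CPM at TN and 1262 to 2556 CPM in cold, with 2 of 8 called lower in AKO and 0 in WT. Over all genes tested, 11.5% were called lower in AKO and 5.68% in WT. The 6 cell cycle genes summed to 96.4 to 352.7 CPM at TN and 73.4 to 143 CPM in cold, with none called in either genotype. Their part in the result was not tested.

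The 9 genes of general mitochondrial function listed, such as Cs and Sdha, all rose in cold in both genotypes, where 15.6% of all genes were called higher in each. The summed CPM of the 9 genes ranged from 2204 to 3844 at TN and from 7723 to 13600 in cold. Relative to this sum, all 10 BCAA breakdown genes were lower in every cold mouse than in every TN mouse of the same genotype, with a median log2 difference of -0.72 in WT and -1.16 in AKO. So were 91.6% of all genes tested in WT and 93.6% in AKO. The BCKDH genes were nearest to the mitochondrial reference in WT, at -0.23 for Dbt, -0.34 for Bckdha and -0.36 for Bckdhb. In AKO Bckdhb (-0.37) and Dbt (-0.50) were nearest, followed by Bckdk (-0.79) and Bckdha (-0.84). The sum is weighted towards abundant genes, and its members rose by unequal amounts, in WT from 0.54 for Tomm20, a subunit of the outer membrane import receptor, and 0.99 for Vdac1, an outer membrane channel, to 2.57 for Idh3a. The fitted rises of Bckdha (1.29), Bckdhb (1.23) and Dbt (1.36) in WT lay above those of Tomm20 and Vdac1, both named after their values were seen, and below that of Sdha (1.40). Hspd1 (1.31) lay above Bckdha and Bckdhb and below Dbt in WT. Sdha and Hspd1 were not among the genes named by smallest p. In AKO Bckdhb (1.39) and Dbt (1.26) lay above Vdac1 (1.01), and Bckdha (0.91) lay below it. Tomm20 (0.55) lay below Bckdha, and Hspd1 (1.28) lay between Dbt and Bckdhb. The other reference genes lay above Bckdhb, Dbt and Bckdha in AKO, from Sdha (1.45) and Atp5a1 (1.62) through Mdh2 (1.94), Uqcrc2 (1.98) and Cs (2.03) to Idh3a (2.87). These differences between genes were not tested.

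**Figure D4:**
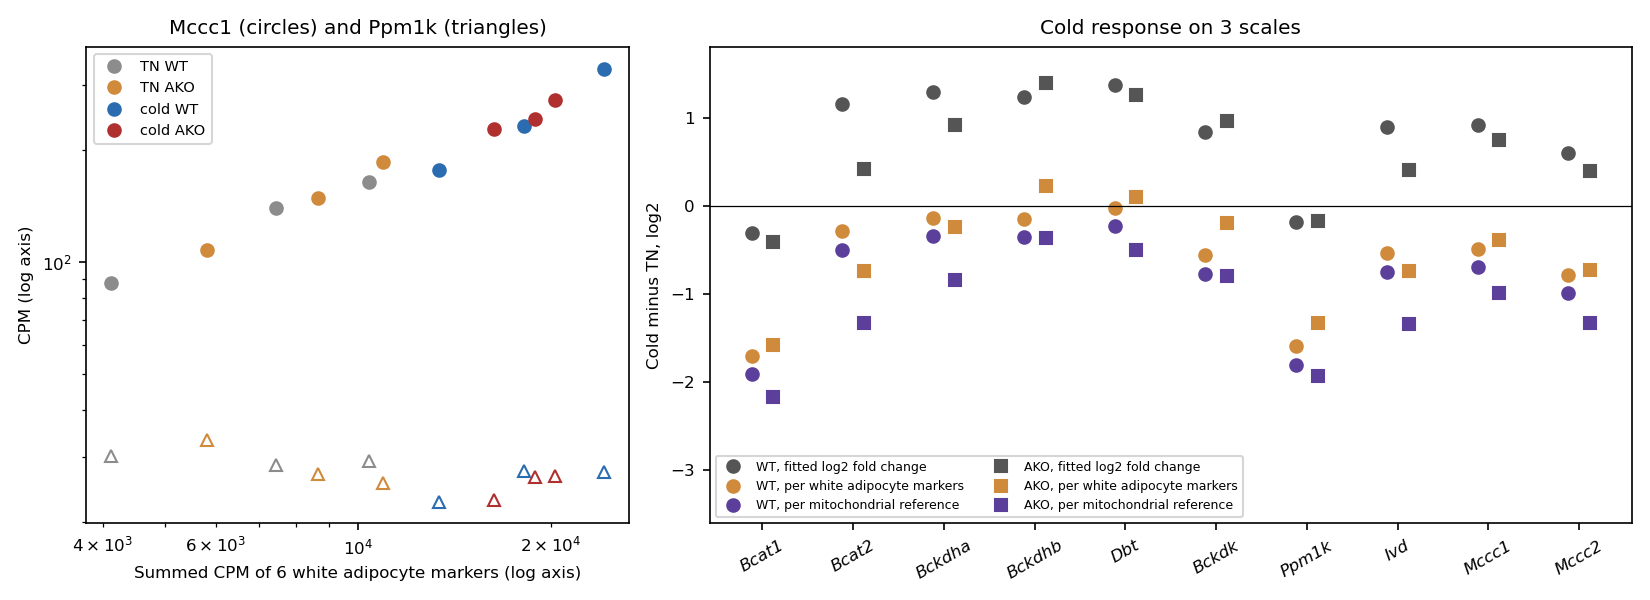
Left, CPM of Mccc1 (circles) and Ppm1k (triangles) against the summed CPM of 6 white adipocyte markers, both axes logarithmic, 1 point per mouse. Right, cold minus TN on the log2 scale for each gene as fitted, relative to the white adipocyte markers and relative to 9 mitochondrial genes, in WT (circles) and AKO (squares). Mccc1 rises with the marker sum and Ppm1k does not, and every value relative to the mitochondrial genes is under 0.

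Genes of the enzymes that carry BCAA carbon onward also rose. Of 17 distal enzyme genes, 16 rose in cold in WT and 12 in AKO, with none falling and medians of 1.21 and 1.13. Over all genes tested, 15.6% were called higher in each genotype, a share that also applies to the lists below. The largest were Hadhb and Hadha, the subunits of the mitochondrial trifunctional protein (log2 fold change 2.23 ± 0.30 and 2.20 ± 0.26 in WT, 2.51 ± 0.30 and 2.49 ± 0.27 in AKO). These serve fatty acid oxidation, so their rise is not particular to BCAA breakdown. Mcee, the methylmalonyl-CoA epimerase of the isoleucine and valine route, rose by 1.79 ± 0.28 in WT and 2.02 ± 0.28 in AKO. Dld, the E3 subunit that BCKDH shares with other dehydrogenases, rose by 1.68 ± 0.28 in WT and 1.89 ± 0.28 in AKO, beside 1.24 to 1.36 for the E1 and E2 genes in WT; that difference was not tested.

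Of 6 transport genes, 4 rose in WT and 2 in AKO. Slc25a44, the mitochondrial BCAA carrier, rose by 1.26 ± 0.25 in WT (adjusted p = 0.00717) and by 1.06 ± 0.25 in AKO (adjusted p = 0.0132). It measured 52.3, 39.0 and 67.1 CPM in TN WT, 106.4, 96.8 and 175.8 CPM in cold WT, 55.6, 79.8 and 82.6 CPM in TN AKO and 168.1, 144.5 and 142.5 CPM in cold AKO, with no overlap between temperatures. Slc3a2, the heavy chain of plasma membrane amino acid exchangers, rose by 0.64 ± 0.10 in WT and 0.32 ± 0.10 in AKO. Its light chain partner Slc7a8 rose by 0.53 ± 0.11 in WT and stood at -0.10 ± 0.11 in AKO, and the transporter Slc43a2 rose by 0.45 ± 0.13 in WT and stood at -0.02 ± 0.13 in AKO.

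Of 10 genes for cofactors and electron transfer, 8 rose in WT, and 7 rose and 1 fell in AKO, where 11.5% of all genes were called lower. Etfdh, Etfa and Etfb, which hand the electrons of Ivd and other dehydrogenases to the respiratory chain, rose by 2.50 ± 0.27, 1.65 ± 0.26 and 1.72 ± 0.28 in WT and by 2.64 ± 0.27, 1.77 ± 0.26 and 1.77 ± 0.28 in AKO. Lipt1, a lipoyltransferase that acts on E2 proteins such as Dbt, rose by 1.78 ± 0.26 in WT and 1.67 ± 0.26 in AKO. The gene that fell in AKO was Hlcs, which attaches biotin to carboxylases (log2 -0.40, adjusted p = 0.0154; named after its value was seen).

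The 5 transcription regulators listed all rose in WT, and 3 of them in AKO. Ppara rose by 3.33 ± 0.48 in WT and 2.98 ± 0.47 in AKO, Ppargc1a by 2.56 ± 0.34 and 2.95 ± 0.34, and Esrra by 1.61 ± 0.19 and 1.85 ± 0.19. Klf15, a factor known to control BCAA catabolic genes, rose by 1.53 ± 0.33 in WT (adjusted p = 0.0101) and stood at -0.05 ± 0.33 in AKO (adjusted p = 0.921). All 9 mitochondrial reference genes rose in both genotypes, with the smallest p in WT for Uqcrc2 (1.79 ± 0.24 in WT and 1.98 ± 0.24 in AKO), Mdh2 (1.83 ± 0.25 and 1.94 ± 0.25) and Idh3a (2.57 ± 0.37 and 2.87 ± 0.38).

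**Figure D5:**
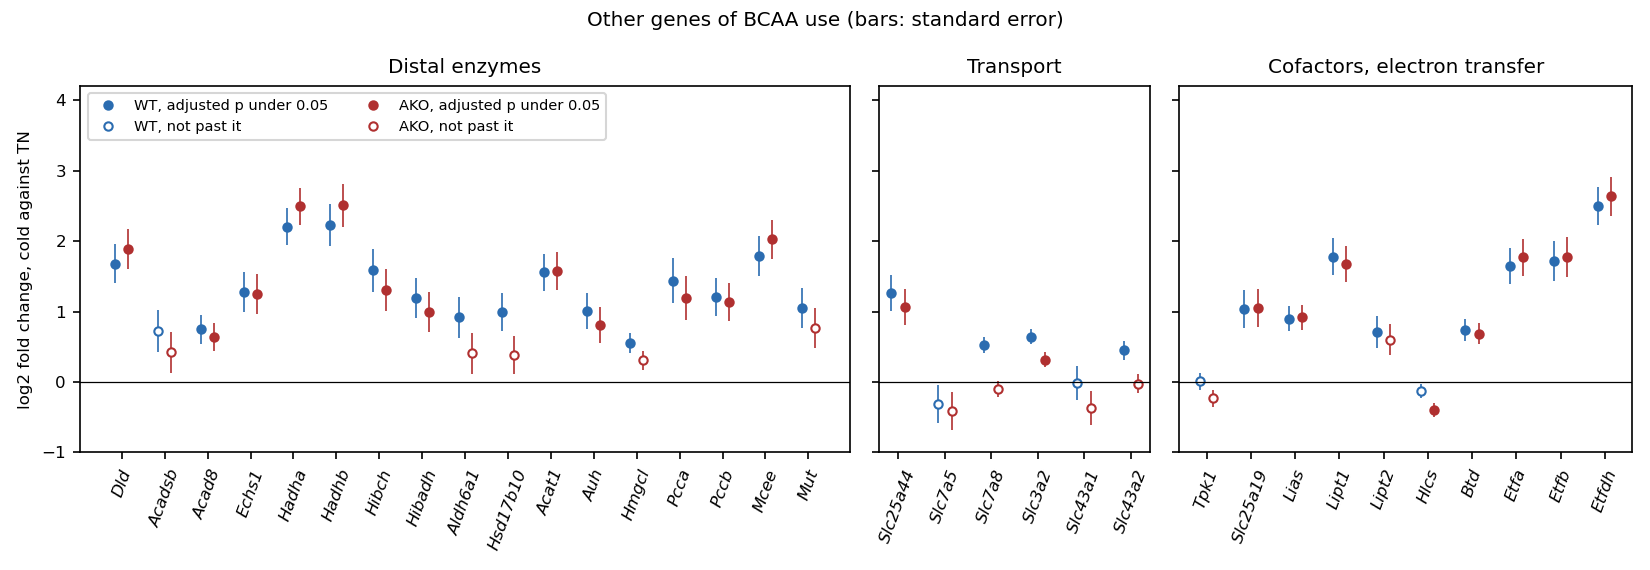
Log2 fold change of cold against TN (y axis, shared) for 17 distal enzyme, 6 transport and 10 cofactor and electron transfer genes (x axes) in WT (blue) and AKO (red); bars are standard errors and filled points had an adjusted p under 0.05. Hadha, Hadhb and Etfdh lie over 2 in both genotypes.

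Libraries labelled AKO were compared with WT at each temperature to ask whether adipocyte HIF2a bears on the pathway. Of the 10 genes 0 were called at TN and 0 in cold, where 0.00653% of all genes were called in each comparison, and 0 had an unadjusted p under 0.05, against 2.91% of all genes at TN and 2.95% in cold. In CPM, no member's groups separated at either temperature; over all genes, 3.7% lay higher and 3.99% lower at TN, and 3.8% higher and 3.73% lower in cold. DESeq2 on the 12 libraries also called 0 of the 10 at either temperature. Relative to the reference sums some groups did separate. Bckdhb lay higher in all AKO than in all WT mice relative to the mitochondrial sum, by 0.25 on the log2 scale at TN and 0.24 in cold, as did 0.817% and 0.47% of all genes tested. In cold, relative to the white adipocyte sum, Bckdhb lay higher in AKO (0.50), as did 0.856% of all genes tested, and Bcat2 (-0.48) and Ivd (-0.20) lay lower, as did 1.18%. Without Fabp4 in that sum Bckdhb (0.56) and Bcat2 (-0.42) still separated and Ivd (-0.13) did not. Relative to Adipoq alone, Bcat2 (-0.31) separated, and Bckdhb (0.67) and Ivd (-0.02) overlapped, so the separation of Bckdhb depended on the marker. The share of all genes that separated was not computed without Fabp4 or relative to Adipoq. These values are descriptions with no test.

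At TN the 10 log2 differences ran from -0.17 for Bcat1 to 0.38 for Bckdhb, with a median of 0.20 beside 0.01 for all genes, and in cold from -0.52 for Bcat2 to 0.54 for Bckdhb, with a median of -0.03 beside -0.02. In cold, Bcat2 averaged 234.9 ± 12.0 CPM in AKO and 337.1 ± 118.7 CPM in WT (SD, n = 3 each), and its difference of -0.52 had a 95% interval of -1.095 to 0.05. Bckdhb averaged 145.2 ± 35.3 CPM in AKO and 99.96 ± 19.4 CPM in WT, and its difference of 0.54 had an interval of -0.00489 to 1.08. The difference in Bcat2 was -0.30 without cold WT replicate 3, and that in Bckdhb was 0.33 without cold AKO replicate 1, a library with skeletal muscle transcripts. In cold the interval was -0.62 to 0.50 for Bckdha and -0.60 to 0.61 for Mccc1, and narrower for Bckdk (-0.17 to 0.51) and Ppm1k (-0.28 to 0.23).

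When the genotypes were compared over both temperatures in one fit, 1 of the 10 genes, Bckdhb, had an unadjusted p under 0.05, against 3.64% of all genes. Its log2 difference was 0.46 ± 0.17 (95% interval 0.07 to 0.84, adjusted p = 0.9999, edgeR's quasi-likelihood test), and it did not pass the limit. The smallest and largest of the other 9 differences were -0.23 for Bcat1 and 0.20 for Dbt.

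The cold responses of the 2 genotypes were tested against each other directly. Of the 10 genes 0 were called, as were 0% of all genes, and 0 had an unadjusted p under 0.05, against 2.14% of all genes. The largest difference was in Bcat2, whose log2 cold response differed by -0.74, AKO minus WT (95% interval -1.55 to 0.07, adjusted p = 1, edgeR's quasi-likelihood test), followed by Ivd at -0.49 (-1.30 to 0.33). That 7 of the 10 genes were called in WT and 4 in AKO is therefore not shown to be a difference between genotypes. The 4 count ratios gave no difference in cold response either, with exact permutation p of 0.34 for Bcat1 to Bcat2, 0.75 for Bckdk to Ppm1k, 0.215 for Bckdha to Bckdhb and 0.655 for Mccc1 to Mccc2 (adjusted p at least 0.68).

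The genes most like the members over the 12 libraries, by Pearson's r of log2 CPM among 13144 genes with a mean count of at least 50, were named for 3 of them as a description. For Bckdha these were Nampt (0.991), Nr1h3 (0.991) and Cers2 (0.99), and for Bcat2 they were Hsd17b10 (0.979), Dctn3 (0.975) and Car5b (0.967). Hsd17b10 encodes an enzyme of isoleucine breakdown. For Bcat1 the highest values were lower, with Alkbh8 at 0.918, Zfp426 at 0.886 and Fkbp10 at 0.885. Among the members, r within groups was 0.986 between Mccc1 and Mccc2, 0.985 between Bckdha and Ivd, 0.949 between Bckdhb and Dbt, and 0.805 between the E1 partners Bckdha and Bckdhb.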

How the data were processed

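RNA sequencing of iWAT from 12 mice was used. Per the labels, the authors trimmed reads with Trim Galore 0.4.4, aligned them with STAR 2.6.1d to GRCm38/mm10 and counted genes with HTSeq 0.13.5; they list DESeq2 1.30.0. The annotation and strand setting are not given in the sources used here. The deposited values are raw counts per gene, without normalization. The 5 HTSeq tally rows (21.9 to 27.0% of each file) name no gene and were left out.

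Genes were filtered with filterByExpr (minimum count 10, minimum total 15), scaled by TMM and tested with edgeR 4.0.16 in R 4.3.3 (quasi-likelihood, 1 factor of 4 groups over 12 libraries, Benjamini-Hochberg over all genes tested, limit 0.05). Nothing in the labels states more than that each library is a separate sample. Levels are TMM-scaled CPM. Exon lengths came from GENCODE vM21 on GRCm38. Ratios of counts had 0.5 added and were compared by exact permutation tests. Pipelines were tested on simulated counts. Alternatives were DESeq2 1.42.0, limma 3.58.1 voom, other scalings and filters, a replicate block and leaving out each library. All 10 members were named with values in cold against TN. Between genotypes and for the interaction, counts over all 10 were given, and the extremes and some other members were named. Of the other lists, the counts and the up to 4 genes with the smallest p in cold against TN in WT were given. The nearest genes by correlation were named for 3 members. The members and lists were chosen with earlier results of these data known. One gene of the mitochondrial reference list is not reported here and was left out of its sum.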

Additional observations from a re-analysis of the deposited data

How the results depend on the processing

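In cold against TN, the 20 member fold changes (10 genes in each genotype) kept their direction under each of 440 combinations of gene and alternative; 403 also kept their side of the limit, 29 lost a call and 8 gained one. The 7 members called in WT became 4 (Bcat2, Ivd and Mccc1 lost) when edgeR was fitted to the 2 groups alone and at a limit of 0.01, and ranged from 4 to 7 over libraries left out; the 4 in AKO ranged from 3 to 5, and from 3 to 6 over all alternatives, with DESeq2 on the 2 groups adding Bcat2 and Mccc1. Over all genes, 3259 were called in WT (1155 to 4684 over the alternatives) and 4138 in AKO (1466 to 6140). Upper-quartile scaling moved the median of all genes to -0.17 in WT and -0.14 in AKO, with the members' medians at 0.77 and 0.49. Between genotypes 0 members were called under every alternative except looser limits in cold (unadjusted p under 0.15, log2 difference over 0.2), which took in 2, Bcat2 and Bckdhb, with 1374 of all genes instead of 1; DESeq2 called 7 to 13 genes between genotypes, and edgeR on the 2 groups 0. The Bckdha to Bckdhb difference ranged from -0.33 to -0.12 over libraries left out and passed 0.05 only without cold WT replicate 1.

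Replicate numbers are shared by the groups, and 5 of 18 same-numbered pairs had deviations correlated over 0.1 (-0.43 to 0.39). Differently numbered pairs were not set beside them, so whether the numbers pair the mice was not settled. With a replicate block, 5 members were called in WT (Ivd and Mccc1 lost) and 4 in AKO, and the blocked exact p of the ratios was 0.03125, 0.03125, 0.2188 and 0.03125 in the order Bcat1 to Bcat2, Bckdk to Ppm1k, Bckdha to Bckdhb and Mccc1 to Mccc2.

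Signs changed only for genotype and interaction differences that were never called. Over libraries left out, these ran at TN from -0.0938 to 0.17 for Bckdk, -0.16 to 0.0409 for Ppm1k, -0.0436 to 0.37 for Mccc1 and -0.0751 to 0.41 for Mccc2. In cold they ran from -0.25 to 0.21 for Bckdha, -0.0655 to 0.29 for Dbt, -0.0764 to 0.0408 for Ppm1k, -0.42 to 0.05001 for Ivd, -0.15 to 0.28 for Mccc1 and -0.17 to 0.20 for Mccc2. For the interaction they ran from -0.28 to 0.0336 for Bcat1, -0.0564 to 0.37 for Bckdhb, -0.31 to 0.11 for Dbt, -0.00277 to 0.26 for Bckdk, -0.0658 to 0.14 for Ppm1k, -0.37 to 0.10 for Mccc1 and -0.45 to 0.0408 for Mccc2. Without both libraries with skeletal muscle transcripts, an alternative chosen after seeing the data, the values were -0.094 (Bckdk), 0.0407 (Ppm1k), -0.0254 (Mccc1) and -0.0753 (Mccc2) at TN, -0.0654 (Dbt) and -0.0689 (Mccc1) in cold, and 0.0784 (Bcat1) and -0.10 (Ppm1k) for the interaction. Upper-quartile scaling gave -0.00468 for Bckdk at TN. In cold, DESeq2 size factors gave 3.07e-05 for Ppm1k, no filter gave 0.009995 for Ppm1k and 0.000147 for Mccc2, the replicate block gave 0.000989 for Mccc2, and voom with quality weights gave 0.12 for Bckdha, 0.0125 for Ppm1k and 0.11 for Mccc2, and 0.0513 for the Mccc1 interaction. The cause was not tested. With 3 mice a group, small genotype differences could not be detected; Bcat1 rests on the fewest counts.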

Other observations

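Among genes around the pathway, 2 of those named had cold responses that differed most between genotypes by unadjusted p among these lists, and neither passed the adjusted test. Over all genes tested, 2.14% had an unadjusted p under 0.05 for this difference (edgeR's quasi-likelihood test). Klf15 measured 27.0, 20.2 and 45.2 CPM in TN WT, 110.6, 59.7 and 97.3 CPM in cold WT, 43.2, 87.5 and 79.7 CPM in TN AKO and 74.3, 66.3 and 62.7 CPM in cold AKO. Its interaction was -1.58 on the log2 scale (95% interval -2.61 to -0.56, adjusted p = 1, edgeR's quasi-likelihood test), and the TN groups differed by 1.19 (adjusted p = 0.9995). Slc7a8 measured 26.1, 23.9 and 19.6 CPM in TN WT, 36.3, 31.0 and 33.0 CPM in cold WT, 26.4, 25.3 and 29.5 CPM in TN AKO and 26.2, 24.0 and 25.6 CPM in cold AKO. Its interaction was -0.62 (95% interval -0.98 to -0.27, adjusted p = 1), and cold WT lay above the other 3 groups without overlap. The share of all genes with such a separation was not computed.

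The only gene called between genotypes, Zfp949, was called at both temperatures (log2 difference 1.57 at TN and 1.55 in cold, adjusted p = 0.00211 and 0.00278, edgeR's quasi-likelihood test). It lies on chromosome 9 at 88548020 to 88571086 and Bckdhb at 83925111 to 84124240 (GRCm38), 4.42 Mb apart. The distance was taken for Bckdhb only, after its genotype difference, which did not pass the limit, had been seen. A link between these genes was not tested.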
